A study of Mus musculus with 15 samples.

Results

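The genes described here encode the megalin and cubilin endocytosis machinery of fetal enterocytes: Lrp2, Cubn, Amn, Dab2 and Fcgrt. They were chosen by symbol and are 5 of the 36528 gene IDs listed for every library. Earlier results of these data were known when these genes and the gene lists below were chosen, so counts among them are descriptive. Poly(A) RNA of small intestine from mouse embryos of embryonic day E16.5 was sequenced in 15 libraries, 5 of each of 3 genotypes. C362A embryos carried a Casp8 C362A knockin, which replaces the catalytic cysteine of caspase-8, and their tissue was labelled as inflamed. Embryos of the group called knockout here lacked Casp8, wildtype embryos carried normal Casp8, and both kinds of tissue were labelled normal. All 3 genotypes, wildtype included, were Mlkl knockouts, so every embryo lacked the pseudokinase that carries out necroptosis. The labels give no strain, sex, litter or clone, and they do not say whether the libraries of a genotype came from separate embryos. The p-values therefore measure only the spread between these libraries.

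Megalin (Lrp2) and cubilin (Cubn) are large receptors of the apical membrane that take up proteins, vitamin carriers and lipoproteins from the lumen. Cubilin has no transmembrane segment and reaches the surface bound to amnionless (Amn), and the adaptor Dab2 links the receptors to clathrin. The neonatal Fc receptor (Fcgrt) carries immunoglobulin G across the epithelium of suckling rodents. Fetal and suckling enterocytes of the lower small intestine use such uptake to digest milk protein inside the cell, and the kidney proximal tubule and the visceral yolk sac use the same receptors.

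On GRCm38, Lrp2 (Entrez ID 14725) spans chr2:69424335-69586029 and Cubn (65969) spans chr2:13276338-13491876, both on the minus strand. Amn (93835) spans chr12:111271096-111276426 and Dab2 (13132) spans chr15:6299788-6440715, both on the plus strand. Fcgrt (14132) spans chr7:45092993-45103822 on the minus strand. All are protein-coding. Cubn, Amn and Dab2 overlap other annotated genes. Strand is not marked by the library kit, and overlapping transcripts cannot be told apart by their reads. Of those neighbours, Gm16311 in Dab2 had 0 counts in every library, and Gm13270 and LOC115489436 in Cubn, Gm51960 in Amn and Gm18888 in Dab2 were not analysed here.

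The promoter of Amn is shown because Amn was one of the genes whose C362A and knockout libraries did not overlap, and because it held a motif of a factor family known from lysosomes. It is the 250 bases before the RefSeq start on GRCm38.p6, 5′ to 3′ on the plus strand, at chr12:111270846-111271095. Capitals mark the CACGTG motif.
Amn: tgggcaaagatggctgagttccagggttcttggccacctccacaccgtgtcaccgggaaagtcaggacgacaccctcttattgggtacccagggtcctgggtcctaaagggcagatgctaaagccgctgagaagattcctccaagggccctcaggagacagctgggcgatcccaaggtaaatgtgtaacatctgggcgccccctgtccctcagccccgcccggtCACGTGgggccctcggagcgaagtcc
RefSeq promoters were matched for all 5 genes, with 2 starts for Dab2, which gave 6 windows. CACGTG, the core of the element bound by lysosomal regulators such as TFEB and the same on both strands, lay 26 to 21 bases before the start of Amn, and 6.02% of 32851 promoter windows of the same length held it. None of the other 5 windows held it. A match is only a match of letters and shows no binding.

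Total counts were between 31896399 and 38532127 per library, and 18370 genes were tested. Levels are counts per 1e+06 (CPM) scaled by TMM factors, and each mean is given with its SD over the 5 libraries of a genotype. Casp8 averaged 69.9 ± 3.41 in C362A, 14.4 ± 1.65 in knockout and 70.1 ± 5.97 CPM in wildtype libraries. Its log2 fold change was -2.28 in knockout against wildtype (SE 0.08, adjusted p = 2.55e-11 by the quasi-likelihood test of edgeR, adjusted after Benjamini and Hochberg), and a knockin of 1 residue cannot be seen in such counts. Mlkl averaged 0.389 ± 0.261 in C362A, 0.521 ± 0.119 in knockout and 0.506 ± 0.179 CPM in wildtype libraries. Y-linked genes summed to over 10 CPM in 2 C362A, 4 knockout and 4 wildtype libraries.

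Knockout replicate 5 stood apart by transcripts of the kidney proximal tubule, a tissue that also uses megalin and cubilin. Slc34a1, the phosphate transporter of that tubule, had 25.4 CPM in this library and at most 0.163 CPM in the other 14. Slc22a6, its organic anion transporter, had 8.17 CPM there and at most 0.131 CPM in the other 14. Of 9 proximal tubule markers, 8 were highest in knockout replicate 5, and only Slc5a2 was not. The summed level of the 9 markers was 71.9 CPM in knockout replicate 5 and 30.3 to 34.3 CPM in the other knockout libraries, against 23.4 to 33.7 CPM in C362A and 25.7 to 38.1 CPM in wildtype libraries. Kap was at 0 in all C362A and wildtype libraries and Slc22a6 at 0 in all C362A libraries. Levels, comparisons and correlations that this library moved most are given with and without it. Slc34a1, Slc22a6, Slc5a2 and Kap were singled out after their values were seen.

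Megalin was the least abundant of the receptors and spread widely. Lrp2 had 13.7, 29.3, 21.9, 18.1 and 49.9 CPM in C362A replicates 1 to 5, 48.4, 60.0, 47.7, 45.1 and 84.5 CPM in knockout replicates 1 to 5, and 32.2, 22.8, 50.1, 42.5 and 28.9 CPM in wildtype replicates 1 to 5. Only C362A replicate 5 reached the knockout range, and the highest of all was knockout replicate 5, the library with kidney transcripts. All 3 genotypes overlapped. Means were 26.6 ± 14.2 in C362A, 57.1 ± 16.4 in knockout and 35.3 ± 10.9 CPM in wildtype libraries. Without knockout replicate 5 the knockout mean was 50.3 ± 6.62 CPM (SD, n = 4).

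Cubilin spread most among the C362A libraries. Cubn had 29.3, 153.1, 65.8, 106.2 and 216.7 CPM in C362A replicates 1 to 5, 277.6, 341.9, 303.7, 217.8 and 294.6 CPM in knockout replicates 1 to 5, and 139.2, 171.5, 316.8, 299.7 and 140.4 CPM in wildtype replicates 1 to 5. Every C362A library lay below every knockout library, although the closest pair differed by little. The wildtype libraries fell into a high pair, replicates 3 and 4, and a lower trio that overlapped C362A. Means were 114.2 ± 73.6 in C362A, 287.1 ± 45.4 in knockout and 213.5 ± 87.6 CPM in wildtype libraries. Among C362A libraries the highest was 7.39 times the lowest, against 1.57 times among knockout and 2.28 times among wildtype libraries.

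Amnionless, which cubilin needs to reach the surface, spread less. Amn had 122.8, 139.5, 152.9, 128.9 and 170.2 CPM in C362A replicates 1 to 5, 205.3, 198.9, 194.1, 223.3 and 189.5 CPM in knockout replicates 1 to 5, and 148.6, 189.6, 240.0, 258.7 and 134.0 CPM in wildtype replicates 1 to 5. The C362A and knockout libraries did not overlap, whereas the wildtype libraries reached into the ranges of both. Means were 142.8 ± 19.1 in C362A, 202.2 ± 13.2 in knockout and 194.2 ± 54.7 CPM in wildtype libraries.

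Dab2, the cytoplasmic adaptor, had the smallest biological coefficient of variation in the fit, 0.141, against 0.172 for Amn, 0.351 for Lrp2, 0.406 for Fcgrt and 0.457 for Cubn. It had 78.2, 112.9, 109.2, 108.4 and 141.4 CPM in C362A replicates 1 to 5, 127.1, 146.6, 127.8, 132.0 and 150.2 CPM in knockout replicates 1 to 5, and 114.6, 124.3, 136.5, 122.1 and 96.2 CPM in wildtype replicates 1 to 5. C362A replicate 5 lay inside the knockout range and the other C362A libraries lay below it. Means were 110.0 ± 22.4 in C362A, 136.8 ± 10.9 in knockout and 118.7 ± 14.8 CPM in wildtype libraries.

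Fcgrt, the neonatal Fc receptor, was the most abundant and the most variable in wildtype tissue. It had 182.2, 290.7, 281.5, 266.0 and 500.7 CPM in C362A replicates 1 to 5, 554.1, 637.3, 545.9, 486.5 and 668.9 CPM in knockout replicates 1 to 5, and 287.8, 520.0, 709.9, 1257.4 and 273.4 CPM in wildtype replicates 1 to 5. Again only C362A replicate 5 reached the knockout range, and wildtype replicate 4 had the highest level of all. Means were 304.2 ± 118.0 in C362A, 578.6 ± 73.7 in knockout and 609.7 ± 404.4 CPM in wildtype libraries.

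**Figure D1:**
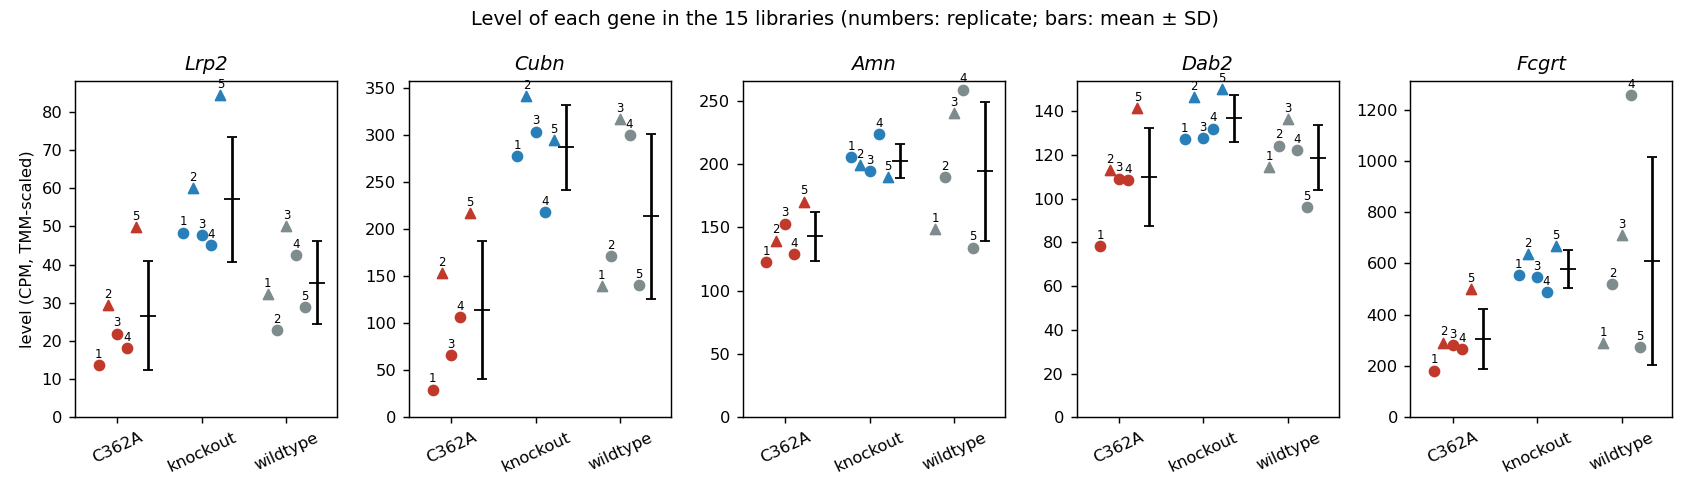
Level of Lrp2, Cubn, Amn, Dab2 and Fcgrt (vertical axes from 0, TMM-scaled CPM) in each C362A, knockout and wildtype library, with the replicate number beside each point and bars for the mean ± SD of 5 libraries; triangles and circles are libraries of the first and second run of sample ID numbers. The C362A points lie low in each panel, with replicate 5 the highest of them, and wildtype replicate 4 stands out for Fcgrt at 1257.4 CPM.

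Libraries tended to rank alike across the 5 genes, with exceptions. Wildtype replicate 4 ranked 15 of 15 for Amn and Fcgrt but 8 for Lrp2 and 7 for Dab2. Knockout replicate 5 ranked 15 for Lrp2 and Dab2 but 8 for Amn. C362A replicate 1 ranked lowest of all 15 libraries for each gene, and C362A replicate 5 was the highest C362A library for each gene. Ranks among the 15 libraries averaged over the genes were 1.0 to 9.6 for C362A libraries, 9.8 to 13.2 for knockout libraries and 3.6 to 13.4 for wildtype libraries. Wildtype replicates 1 and 5 had mean ranks of 5.4 and 3.6, inside the C362A range, and wildtype replicates 3 and 4 had 13.4 and 11.4, inside or above the knockout range. The coefficient of variation within knockout libraries was 6.51% for Amn, 7.96% for Dab2, 12.7% for Fcgrt, 15.8% for Cubn and 28.6% for Lrp2. That of Lrp2 was 13.2% without knockout replicate 5. Within C362A libraries it was 13.4% for Amn, 20.3% for Dab2, 38.8% for Fcgrt, 64.4% for Cubn and 53.5% for Lrp2. In wildtype libraries it lay between 12.5% for Dab2 and 66.3% for Fcgrt. The knockout value was the lowest of the 3 for each gene, and the spreads were not tested against each other.

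**Figure D2:**
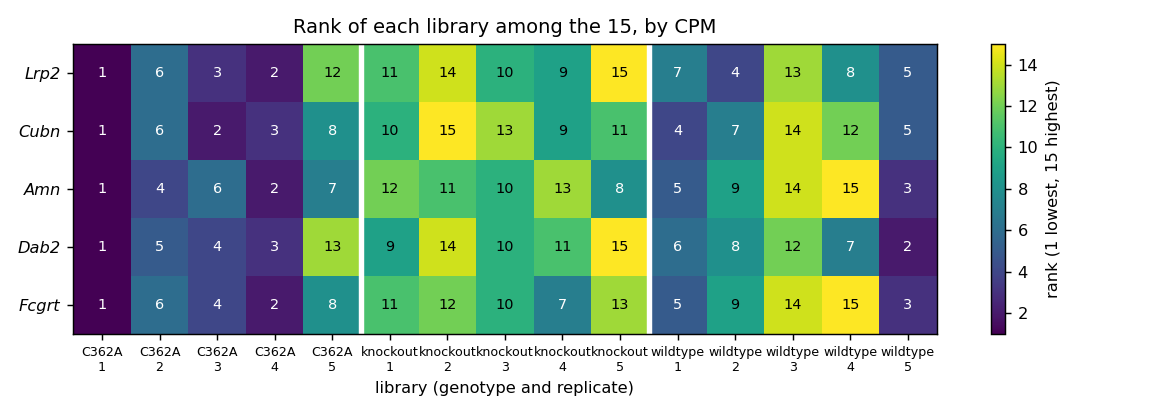
Rank of each C362A, knockout and wildtype library (columns) among all 15 by CPM of each gene (rows), with 1 the lowest and 15 the highest. C362A replicate 1 has rank 1 in every row, and wildtype replicates 1 and 5 rank no higher than 7.

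Between genes, levels were compared per length, as the reads scaled for gene length and library size (RPKM) that the authors deposited. Averaged over the 15 libraries, Fcgrt had 273.1 RPKM and stood at percentile 99.0 of the genes tested, and Amn had 103.9 RPKM at percentile 96.5. Dab2 had 20.4 RPKM, Cubn 17.6 RPKM and Lrp2 2.5 RPKM, the last at percentile 35.2. The order of Dab2 and Cubn was not the same in each genotype. Cubn had 9.8 ± 6.28 RPKM in C362A, 24.7 ± 3.86 RPKM in knockout and 18.4 ± 7.6 RPKM in wildtype libraries. Dab2 had 18.4 ± 3.67 RPKM in C362A, 22.9 ± 1.77 RPKM in knockout and 19.9 ± 2.51 RPKM in wildtype libraries, so the knockout and wildtype levels of Cubn and Dab2 lay within their spread.

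Because cubilin and amnionless act as 1 complex, the ratio of their RPKM values was followed across libraries. Cubn over Amn was 0.0355, 0.163, 0.064, 0.123 and 0.189 in C362A replicates 1 to 5, 0.201, 0.256, 0.233, 0.145 and 0.231 in knockout replicates 1 to 5, and 0.139, 0.135, 0.196, 0.172 and 0.156 in wildtype replicates 1 to 5. Cubilin was thus the smaller part throughout, and least in C362A replicates 1 and 3. The mean ratio was 0.115 ± 0.0649 in C362A, 0.213 ± 0.0427 in knockout and 0.16 ± 0.0253 in wildtype libraries, with overlap between all 3. Lrp2 over Cubn averaged 0.204 ± 0.09 in C362A, 0.147 ± 0.0379 in knockout and 0.127 ± 0.0311 in wildtype libraries. Fcgrt pairs with beta-2-microglobulin (B2m), which many cell types express. Fcgrt over B2m averaged 0.65 ± 0.219 in C362A, 1.37 ± 0.232 in knockout and 1.39 ± 0.602 in wildtype libraries. B2m itself averaged 224.0 ± 12.1 in C362A, 206.2 ± 12 in knockout and 196.8 ± 44.8 CPM in wildtype libraries, and did not pass the test in any comparison.

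Compared with wildtype, C362A intestine had lower mean levels of all 5 genes, but none passed the test. The log2 fold change of Fcgrt was -1.0 (SE 0.38, adjusted p = 0.285 by edgeR's quasi-likelihood test), and that of Amn was -0.44 (SE 0.15, adjusted p = 0.285). Cubn had a log2 fold change of -0.90 (SE 0.43, edgeR adjusted p = 0.318). Lrp2 had -0.41 (SE 0.32, edgeR adjusted p = 0.521) and Dab2 -0.11 (SE 0.12, edgeR adjusted p = 0.654). Thus 0 of 5 were called by edgeR, by DESeq2 or by limma-voom, where edgeR called 0.0817% of the 18370 genes tested, all of them higher. At an unadjusted p under 0.05 in edgeR 2 of the genes, Amn and Fcgrt, were lower, where 7.8% of all genes were. Libraries of the 2 genotypes overlapped for each gene, where 0.299% of all genes were lower without overlap, with 17 to 20 of the 25 pairs having the lower value in C362A. Without C362A replicate 5 the log2 fold changes were -0.76 for Lrp2, -1.27 for Cubn, -0.51 for Amn, -0.22 for Dab2 and -1.26 for Fcgrt, with edgeR adjusted p-values between 0.0513 and 0.197. Without it edgeR called 1807 genes in all, against 15 with it. Other omissions made differences larger in some cases and smaller in others, with none of the 5 genes called. The log2 fold changes without wildtype replicate 5 were larger, -0.47 for Lrp2, -1.02 for Cubn, -0.55 for Amn, -0.18 for Dab2 and -1.19 for Fcgrt. Without wildtype replicate 4 the log2 fold change was -0.56 for Fcgrt and -0.32 for Amn. Without C362A replicate 1 it was -0.24 for Lrp2, -0.66 for Cubn and -0.01 for Dab2, and without wildtype replicate 3 it was -0.25 for Lrp2 and -0.06 for Dab2. With the level of Y-linked genes as a covariate Lrp2 had -0.64.

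No difference between knockout and wildtype intestine was detected for any of the 5 genes. The log2 fold change was 0.70 for Lrp2 (SE 0.32), 0.43 for Cubn (SE 0.42), 0.20 for Dab2 (SE 0.12), 0.06 for Amn (SE 0.15) and -0.08 for Fcgrt (SE 0.38), each with an adjusted p of 1.0 by edgeR's quasi-likelihood test. None of the 5 was called by edgeR, DESeq2 or limma-voom, where edgeR called 0.0381% of genes. At an unadjusted p under 0.05 in edgeR only Lrp2 was higher, where 1.2% of all genes were, and its p lay just under that threshold. The 2 genotypes overlapped for all 5 genes, where 0.37% of all genes were higher without overlap. The Lrp2 value included knockout replicate 5. Without it, Lrp2 had a log2 fold change of 0.51 (SE 0.33, edgeR adjusted p = 1.0), and the other 4 genes had 0.42 for Cubn, 0.08 for Amn, 0.17 for Dab2 and -0.13 for Fcgrt. The sign of Fcgrt depended on wildtype replicate 4, without which the log2 fold change was 0.37. That of Amn turned to -0.02 without wildtype replicate 1 and to -0.05 without wildtype replicate 5.

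Except for Fcgrt, log2 fold changes were larger between C362A and knockout intestine than between C362A and wildtype. All 5 genes had lower levels in C362A than in knockout intestine. The log2 fold change was -1.33 for Cubn (SE 0.43), -1.10 for Lrp2 (SE 0.33), -0.50 for Amn (SE 0.15) and -0.31 for Dab2 (SE 0.12), each with an adjusted p of 0.317 by edgeR's quasi-likelihood test. Fcgrt had -0.93 (SE 0.38, edgeR adjusted p = 0.324). None was called by edgeR, DESeq2 or limma-voom, where edgeR called 0.0109% of genes. At an unadjusted p under 0.05 in edgeR, 5 of 5 were lower in C362A, where 7.41% of all genes were lower. The 5 genes were chosen with earlier results known and their levels were correlated, so they are not 5 independent results. The unadjusted edgeR p-values lay between 0.00421 for Amn and 0.029 for Fcgrt. Cubn and Amn did not overlap between the 2 genotypes and were lower in C362A in 25 of 25 pairs, where 1.74% of all genes were lower without overlap. Lrp2 and Dab2 were lower in 22 of 25 pairs each and Fcgrt in 24 of 25.

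Leaving out C362A replicate 5 moved 3 genes across the threshold in the comparison of C362A with knockout. Without that replicate, 3 of the 5 genes were called lower by edgeR's quasi-likelihood test, where edgeR called 805 genes in all, against 2 with it. These were Lrp2 (log2 fold change -1.46, edgeR adjusted p = 0.0383), Cubn (-1.69, edgeR adjusted p = 0.0482) and Dab2 (-0.42, edgeR adjusted p = 0.0466). Amn had -0.57 (edgeR adjusted p = 0.0522) and Fcgrt -1.18 (edgeR adjusted p = 0.0859). Without knockout replicate 5, the library with kidney transcripts, the log2 fold change was -0.92 for Lrp2, -1.32 for Cubn, -0.52 for Amn, -0.28 for Dab2 and -0.87 for Fcgrt, with edgeR adjusted p-values between 0.315 and 0.373. Cubn and Amn were then lower in C362A in 20 of 20 pairs. The 3 comparisons share libraries and are not independent of each other.

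**Figure D3:**
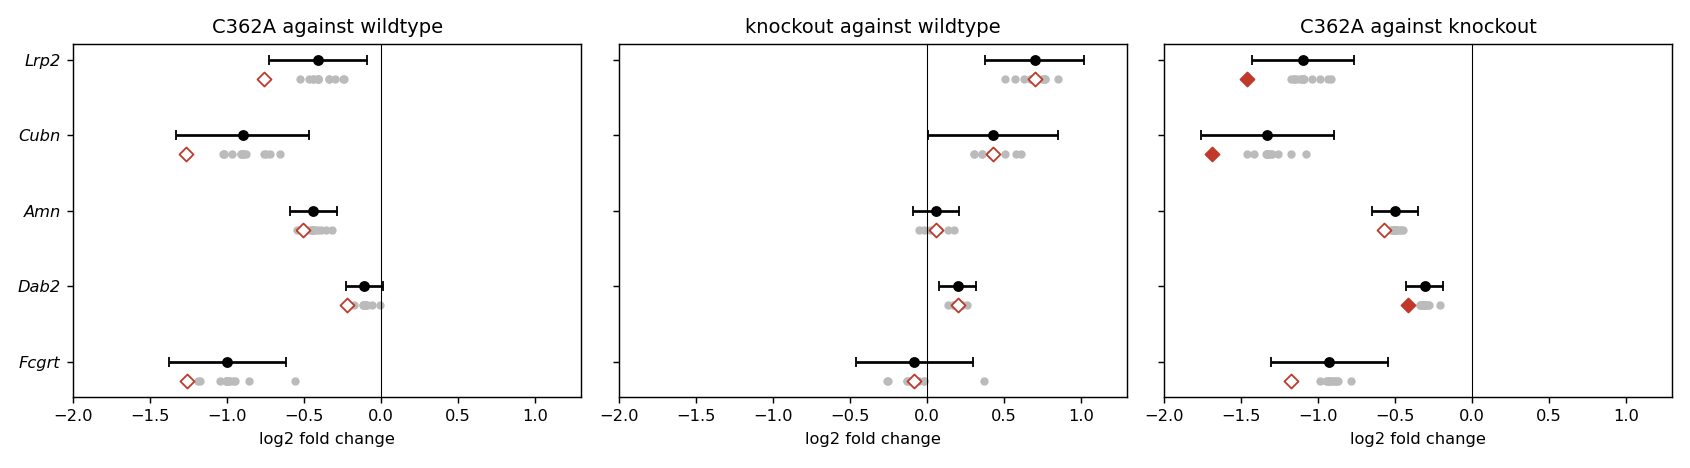
Log2 fold change of each gene for C362A against wildtype, knockout against wildtype and C362A against knockout; black points and bars are the fit of all 15 libraries ± SE, grey points leave out 1 library each, and diamonds leave out C362A replicate 5, filled where the adjusted p is under 0.05. Filled diamonds stand at -1.46 for Lrp2, -1.69 for Cubn and -0.42 for Dab2, all in C362A against knockout.

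The sample IDs in the labels fall into 2 runs of consecutive numbers, the first with 2 libraries of each genotype and the second with 3. The labels do not call these runs a batch. In the first run, C362A minus knockout in mean log2 CPM was -0.89 for Lrp2, -0.80 for Cubn, -0.33 for Amn, -0.23 for Dab2 and -0.78 for Fcgrt. The second run gave -1.42 for Lrp2, -2.16 for Cubn, -0.63 for Amn, -0.40 for Dab2 and -1.14 for Fcgrt. C362A libraries were below knockout libraries without overlap for all 5 genes in both runs, where 4.28% of all genes were. Without knockout replicate 5, which leaves 1 knockout library in the first run, that run gave -0.65 for Lrp2, -0.91 for Cubn, -0.37 for Amn, -0.22 for Dab2 and -0.74 for Fcgrt. Against wildtype, C362A differed by -0.07 for Lrp2, -0.20 for Cubn, -0.29 for Amn, 0.01 for Dab2 and -0.24 for Fcgrt in the first run. In the second run those differences were -0.79 for Lrp2, -1.71 for Cubn, -0.48 for Amn, -0.22 for Dab2 and -1.24 for Fcgrt, and Lrp2 and Cubn were lower without overlap, where 17.6% of all genes were. Knockout minus wildtype was 0.83 and 0.63 for Lrp2 in the first and second run, 0.60 and 0.45 for Cubn, 0.25 and 0.18 for Dab2, 0.04 and 0.15 for Amn, and 0.53 and -0.09 for Fcgrt. Lrp2 and Dab2 were higher in knockout than in wildtype libraries without overlap in both runs, where 0.724% of all genes were. The first-run value was 0.58 for Lrp2 and 0.23 for Dab2 without knockout replicate 5. With 2 or 3 libraries per genotype a permutation test cannot reach a p under 0.05, and these differences were not tested.

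Levels of the 5 genes were correlated with each other over the libraries. Over the 10 pairs of genes, Pearson's r of log2 CPM lay between 0.70 (Lrp2 with Amn) and 0.93 (Amn with Fcgrt), and Spearman's rho between 0.65 and 0.93. Permutation p-values, adjusted over a family of 35 relations, were at most 0.0089 for r and 0.0223 for rho. Without the 2 libraries farthest from the median, r was 0.52 to 0.91. With the mean of each genotype removed it was 0.50 to 0.89. In the first run r was 0.67 to 0.98 over 6 libraries, and in the second 0.77 to 0.94 over 9. Without knockout replicate 5, the 4 pairs with Lrp2 had r of 0.75 to 0.91 over 14 libraries. These relations are over whole-tissue libraries that share their genotype and their cell composition.

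Levels of the 5 genes followed those of general enterocyte markers. The mean log2 CPM of 20 enterocyte markers, none of them among the 5 genes and 1 (Lct) shared with the suckling-type list, was 7.79, 8.28, 8.22, 8.23 and 8.72 in C362A replicates 1 to 5, 8.90, 9.05, 8.97, 8.71 and 8.90 in knockout replicates 1 to 5, and 8.16, 8.77, 9.04, 9.45 and 8.29 in wildtype replicates 1 to 5. The lowest value again fell on C362A replicate 1, and the highest on wildtype replicate 4, followed by knockout replicate 2 and wildtype replicate 3. Fcgrt had r = 0.99 and rho = 0.92 with that mean (permutation p = 1e-05 each, the smallest that 100000 permutations give, adjusted 7e-05 and 0.000175). Amn had r = 0.93 and rho = 0.84 (adjusted permutation p = 7e-05 and 0.0008). Cubn had r = 0.89 and rho = 0.95 (adjusted permutation p = 7e-05 and 0.000233). Dab2 had r = 0.78 and rho = 0.69 (adjusted permutation p = 0.002 and 0.0148), and Lrp2 had r = 0.76 and rho = 0.72 (adjusted permutation p = 0.00318 and 0.00901). Fcgrt had the highest r and Cubn the highest rho, while both measures were lowest for Lrp2 and Dab2.

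Those relations held in subsets of the libraries. Without the 2 farthest libraries r with the enterocyte mean was 0.76 for Lrp2, 0.90 for Cubn, 0.89 for Amn, 0.83 for Dab2 and 0.98 for Fcgrt. With genotype means removed it was 0.63 for Lrp2, 0.80 for Cubn, 0.87 for Amn, 0.70 for Dab2 and 0.98 for Fcgrt. In the first run of 6 libraries r was 0.82 to 0.99, and in the second run of 9 it was 0.81 to 0.99. In bulk tissue, fewer enterocytes and less of these transcripts per enterocyte cannot be told apart.

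With the enterocyte mean as a covariate in edgeR's fit, most differences between genotypes were smaller. For C362A against wildtype the log2 fold change was then -0.03 for Lrp2, -0.25 for Cubn, -0.10 for Amn, 0.08 for Dab2 and -0.02 for Fcgrt. For C362A against knockout it was -0.58 for Lrp2, -0.47 for Cubn, -0.10 for Amn, -0.06 for Dab2 and 0.09 for Fcgrt. The signs of Dab2 in the first of these comparisons and of Fcgrt in the second were thereby reversed, and Lrp2 and Cubn kept the largest values against knockout. The enterocyte markers themselves had lower means in C362A libraries, so these fits cannot separate the number of enterocytes from the level per enterocyte. With the mean of 12 pan-epithelial markers such as Epcam as the covariate, the log2 fold changes of C362A against knockout were -1.07 for Lrp2, -1.39 for Cubn, -0.54 for Amn, -0.32 for Dab2 and -1.0 for Fcgrt.

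**Figure D4:**
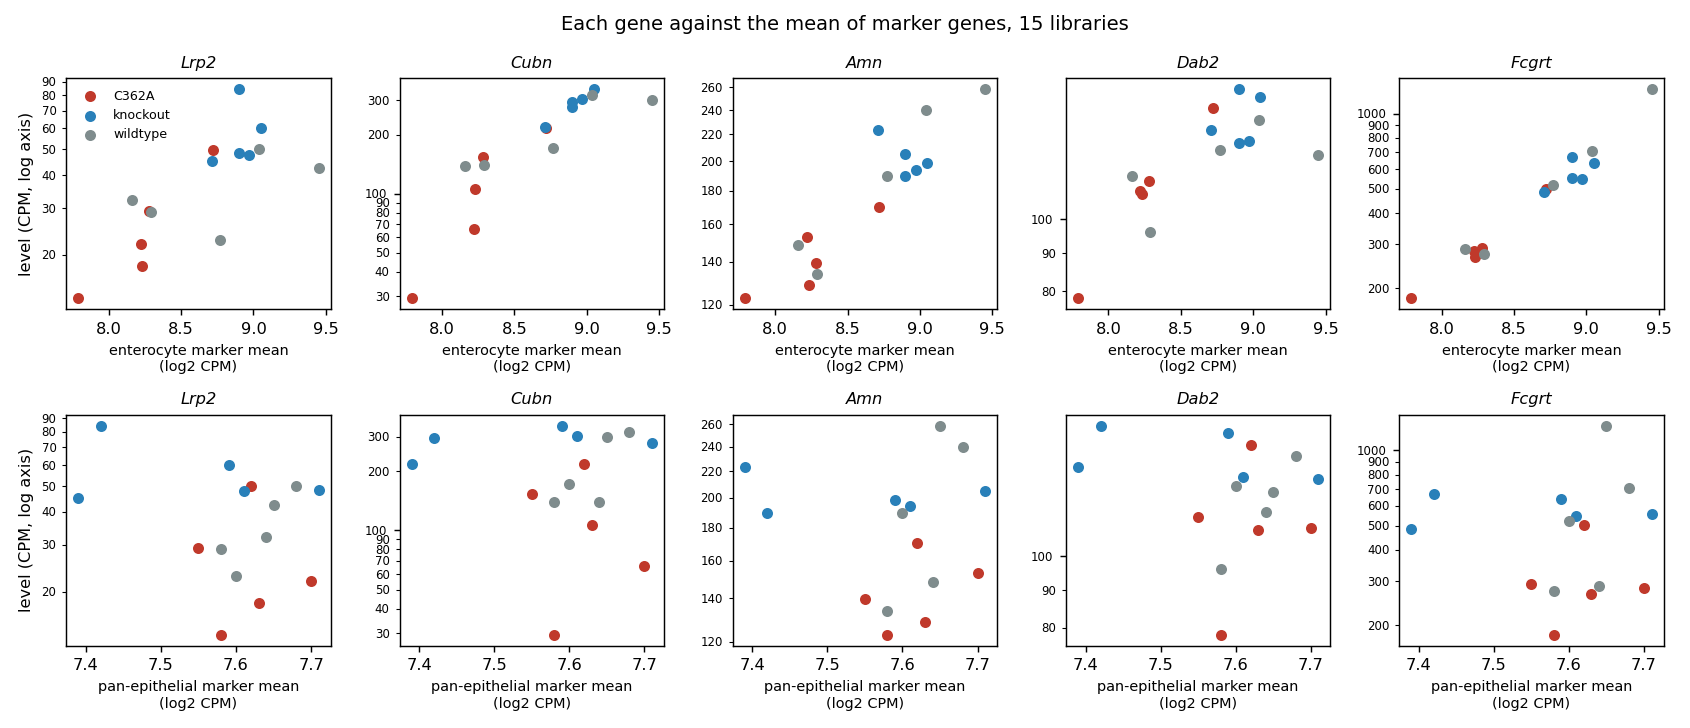
CPM of each gene (vertical, log axis) against the mean log2 CPM of 20 enterocyte markers (upper row) or 12 pan-epithelial markers (lower row), 1 point per library, in red for C362A, blue for knockout and grey for wildtype. Points climb with the enterocyte mean, with r = 0.99 for Fcgrt and 0.76 for Lrp2, and show no such slope against the pan-epithelial mean, with r between -0.28 and -0.03.

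Other cell classes were set beside the 5 genes in the same way. With the pan-epithelial mean, r lay between -0.28 and -0.03 and rho between -0.09 and 0.26 (adjusted permutation p of at least 0.461 for r and 0.527 for rho). Without the 2 farthest libraries r was 0.15 to 0.42. With macrophage markers r was -0.25 to -0.02 and with endothelium markers -0.41 to -0.08, and no adjusted permutation p for r was below 0.222. Without knockout replicate 5 the endothelium r was -0.52 for Lrp2, -0.60 for Cubn, -0.37 for Amn, -0.31 for Dab2 and -0.49 for Fcgrt, over 14 libraries and with no test. The mean of fibroblast markers had r = -0.72 and rho = -0.70 with Amn (adjusted permutation p = 0.00779 and 0.0132), r = -0.69 and rho = -0.58 with Fcgrt (0.00931 and 0.0487), and r = -0.59 and rho = -0.65 with Cubn (0.0333 and 0.0223). These were -0.57 for Amn, -0.52 for Fcgrt and -0.54 for Cubn without the 2 farthest libraries, -0.78 for Amn, -0.66 for Fcgrt and -0.67 for Cubn in the first run, and -0.74 for Amn, -0.78 for Fcgrt and -0.75 for Cubn in the second. With genotype means removed r was -0.59 for Amn, -0.55 for Fcgrt and -0.39 for Cubn. With Lrp2 (r = -0.44) and Dab2 (r = -0.29) the fibroblast relation had adjusted permutation p-values of 0.191 and 0.461. Without knockout replicate 5, whose summed fibroblast markers were the highest of its genotype, that r was -0.69 for Lrp2 and -0.44 for Dab2, with no test.

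Markers of each tissue component were also summed. Enterocyte markers summed to 7586.4 to 16417.9 in C362A, 16497.4 to 20547.3 in knockout and 10289.6 to 31167.7 CPM in wildtype libraries. At an unadjusted p under 0.05 in edgeR, 14 of the 20 were lower in C362A against wildtype, where 7.8% of all genes were, and 19 against knockout, where 7.41% were, and 0 of 20 were called in either comparison. Pan-epithelial markers summed to 3720.8 to 4246.8 in C362A, 3388.9 to 4489.8 in knockout and 3773.3 to 4596.2 CPM in wildtype libraries, and 0 of 12 were called. Macrophage markers summed to 302.7 to 383.2 in C362A, 274.5 to 349.4 in knockout and 234.9 to 359.7 CPM in wildtype libraries. Adgre1, the macrophage surface protein F4/80, was the 1 of 12 called and was higher in C362A against wildtype (log2 fold change 0.75, SE 0.13, edgeR adjusted p = 0.0361). It was also higher in knockout against wildtype, without a call (log2 fold change 0.54, SE 0.13, edgeR adjusted p = 0.8). C362A against knockout gave 0.21 (SE 0.13, edgeR adjusted p = 0.463). Adgre1 averaged 14.3 ± 1.42 in C362A, 12.4 ± 2.67 in knockout and 8.52 ± 0.853 CPM in wildtype libraries. At an unadjusted p under 0.05 in edgeR, 7 of the 12 macrophage and 4 of 10 fibroblast markers were higher in C362A against wildtype, where 8.08% of all genes were. So were 4 of 10 endothelium and 3 of 7 smooth muscle markers at that threshold. Markers of the visceral yolk sac, which shares Apoa1, Ttr and Afp with fetal gut and liver, summed to 1633.2 to 2770.1 in C362A, 3291.3 to 3734.8 in knockout and 1813.1 to 5346.1 CPM in wildtype libraries. Of these markers, Rhox5 and Slc13a4 averaged under 1 CPM in each genotype. Cited1, Foxa2 and Sox17 averaged 1.16 ± 0.343, 4.12 ± 0.911 and 8.48 ± 1.51 CPM in wildtype libraries. Rhox5, Slc13a4, Cited1, Foxa2 and Sox17 were named after their values were seen. Hepatocyte markers summed to 61.8 to 292.7 in C362A, 53.4 to 835.0 in knockout and 36.2 to 524.5 CPM in wildtype libraries. Fibroblast markers summed to 5961.9 to 8477.1 in C362A, 5453.8 to 8297.3 in knockout and 4893.5 to 7811.3 CPM in wildtype libraries. The part of these cell classes in the levels of the 5 genes was not tested, and the covariate fits cannot decide it.

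Partner genes of the receptors, 14 of which were tested with the 5 included, were called in no comparison. Without the 5 genes, the 9 partners had a median log2 fold change of 0.01 in C362A against wildtype, 0.03 in knockout against wildtype and -0.04 in C362A against knockout. With them the median log2 fold change was -0.12 in C362A against wildtype, 0.06 in knockout against wildtype and -0.26 in C362A against knockout, beside medians over all genes of 0.01, -0.00 and 0.01. Mamdc4 (endotubin, a protein of the apical endosomes of suckling enterocytes) averaged 897.7 ± 631.8 in C362A, 1706.6 ± 496.9 in knockout and 1813.8 ± 975.6 CPM in wildtype libraries. Its log2 fold change was -1.01 in C362A against wildtype (SE 0.44, edgeR adjusted p = 0.297). Clcn5, the chloride-proton exchanger of endosomes in receptor-mediated uptake, averaged 209.3 ± 29.1 in C362A, 284.2 ± 18.3 in knockout and 249.8 ± 46.9 CPM in wildtype libraries. Both were named after their values were seen, as were B2m and Lrpap1. Lrpap1, the chaperone of megalin, had log2 fold changes of 0.06 in C362A against wildtype and 0.13 in C362A against knockout.

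Among 30 genes of clathrin coats and the apical endosome, 0 were called in any comparison, and the median log2 fold change was -0.03 in C362A against wildtype, 0.07 in knockout against wildtype and -0.08 in C362A against knockout. Epn1, a clathrin adaptor, averaged 263.2 ± 20.8 in C362A, 306.2 ± 5.1 in knockout and 311.3 ± 56.7 CPM in wildtype libraries. Rab5a, the GTPase of early endosomes, averaged 43.2 ± 5.86 in C362A, 40.5 ± 1.77 in knockout and 38.0 ± 1.9 CPM in wildtype libraries.

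Lysosomal genes, where the endocytosed protein is degraded, mostly had lower values in C362A against knockout, with 0 called. Of 26 tested, 24 had a negative log2 fold change in that comparison, where 46.8% of all genes did, and for 14 of them the unadjusted edgeR p was also under 0.05, where 7.41% of all genes were lower at that threshold. Medians were -0.19 in C362A against wildtype, 0.09 in knockout against wildtype and -0.27 in C362A against knockout. Tfeb, the transcription factor of lysosomal genes, averaged 41.8 ± 2.43 in C362A, 49.3 ± 3.69 in knockout and 50.7 ± 9.01 CPM in wildtype libraries (log2 fold change -0.28 in C362A against wildtype, edgeR adjusted p = 0.285). Scarb2, a lysosomal membrane protein, averaged 59.3 ± 7.75 in C362A, 51.5 ± 5.92 in knockout and 48.3 ± 4.04 CPM in wildtype libraries, with a log2 fold change of 0.30 in C362A against wildtype (edgeR adjusted p = 0.285).

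Cargo and related receptors were compared next. Of 16 tested ligands of megalin or cubilin, 0 were called, and the median was -0.05 in C362A against wildtype, 0.21 in knockout against wildtype and -0.61 in C362A against knockout. Apob, the apolipoprotein of chylomicrons, averaged 649.9 ± 254.7 in C362A, 1208.2 ± 67.7 in knockout and 1040.6 ± 286.6 CPM in wildtype libraries. Apoa1, made by enterocytes and liver, averaged 1818.6 ± 388.6 in C362A, 2914.0 ± 155.8 in knockout and 2850.0 ± 1299.7 CPM in wildtype libraries. Several ligands are liver products, and the hepatocyte markers given above spread widely within each genotype. For the other genes of the LDL receptor family the median was 0.10 in C362A against wildtype, 0.00 in knockout against wildtype and 0.08 in C362A against knockout over 12 tested, with 0 called. Lrp8, a reelin receptor, had 14.3 ± 0.429 in C362A, 11 ± 0.696 in knockout and 11.5 ± 1.69 CPM in wildtype libraries (log2 fold change 0.32 in C362A against wildtype, edgeR adjusted p = 0.285). Lrp5, a Wnt coreceptor, had a log2 fold change of 0.19 in that comparison (edgeR adjusted p = 0.289).

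Of 15 tested genes of vitamin and iron handling, 0 were called, with a median of -0.04 in C362A against wildtype, -0.02 in knockout against wildtype and -0.14 in C362A against knockout. Lrat, which esterifies retinol, averaged 40.3 ± 4.92 in C362A, 64.5 ± 5.74 in knockout and 60.4 ± 21.8 CPM in wildtype libraries, and Rbp2, the retinol-binding protein of enterocytes, averaged 462.2 ± 147.5 in C362A, 890.4 ± 115.4 in knockout and 930.0 ± 579.5 CPM in wildtype libraries. Transcription factors of enterocytes and proximal tubule had medians over 14 genes of -0.11 in C362A against wildtype, 0.02 in knockout against wildtype and -0.14 in C362A against knockout, and 0 called. Cdx1, an intestinal homeobox factor, averaged 165.3 ± 7.31 in C362A, 185.7 ± 26.4 in knockout and 191.4 ± 20.1 CPM in wildtype libraries.

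Genes of suckling-type enterocytes, the cells in which luminal uptake is known to be most active, had lower means in C362A, with 0 called. All 10 had a negative log2 fold change in C362A against wildtype, where 48.6% of all genes did, and against knockout, where 46.8% did. An unadjusted edgeR p under 0.05 was found for 5 of them against wildtype and for 9 against knockout, where 7.8% and 7.41% of all genes were lower. The medians were -0.55 in C362A against wildtype, 0.12 in knockout against wildtype and -0.66 in C362A against knockout. For the 20 general enterocyte markers the medians were similar, -0.56, 0.11 and -0.59 in the same order. Lct, the milk sugar hydrolase, averaged 440.9 ± 167.7 in C362A, 887.6 ± 84.8 in knockout and 808.4 ± 377.3 CPM in wildtype libraries. Folr1, a folate receptor that megalin can take up, averaged 203.0 ± 39.2 in C362A, 290.8 ± 17.5 in knockout and 263.3 ± 68.6 CPM in wildtype libraries. Adult-type enterocyte genes, of which 5 were tested, had medians of -0.23 in C362A against wildtype, 0.17 in knockout against wildtype and -0.40 in C362A against knockout, with 0 called. Of these, Sis and Arg2 had low levels, 2.7 ± 0.851 and 1.17 ± 0.283 CPM in wildtype libraries, whereas Slc5a1 had 276.1 ± 91.0 CPM there. Sis, Arg2 and Slc5a1 were named after their values were seen. Slc2a2, the basolateral glucose transporter, averaged 20.7 ± 10.7 in C362A, 39.0 ± 9.97 in knockout and 37.2 ± 23.8 CPM in wildtype libraries. Mgam, maltase-glucoamylase, averaged 464.5 ± 45.3 CPM in wildtype libraries and had a log2 fold change of -0.23 in C362A against wildtype (edgeR adjusted p = 0.35).

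**Figure D5:**
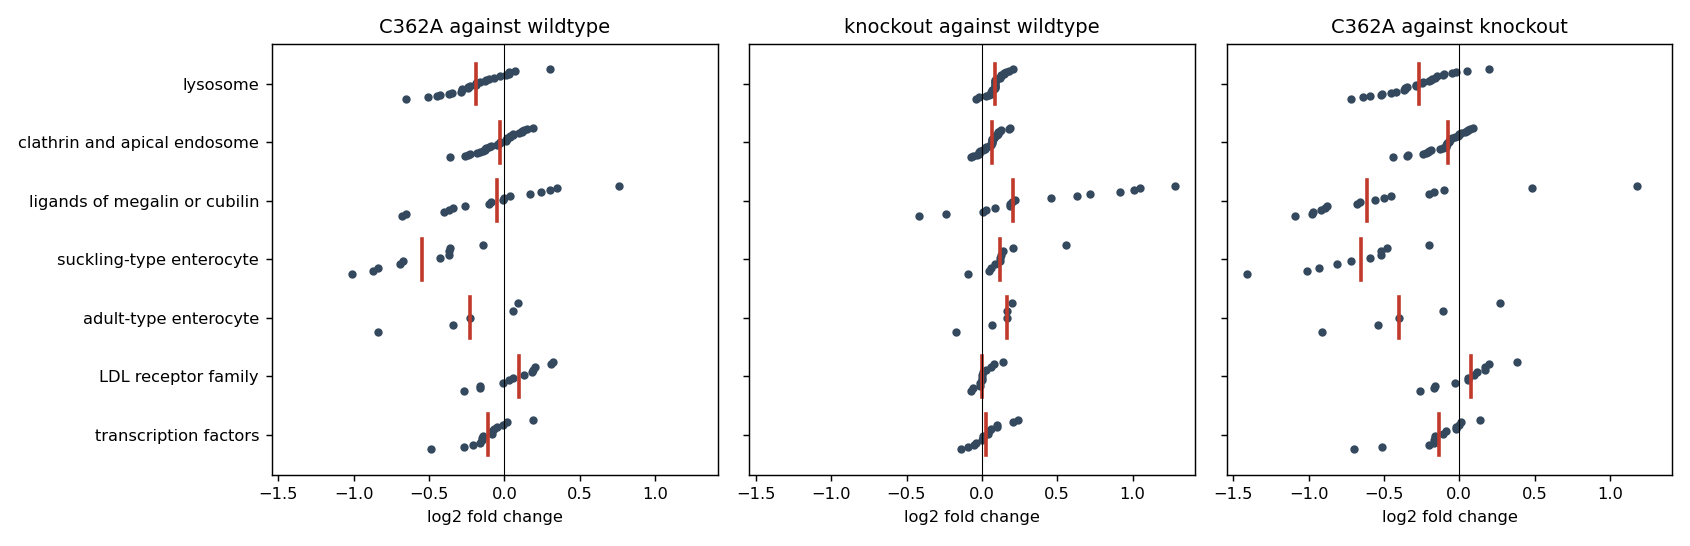
Log2 fold change of every tested gene (points), the 5 genes left out, of 7 gene lists for C362A against wildtype, knockout against wildtype and C362A against knockout, with a red bar at the median of each list. The bars of the suckling-type list lie at -0.55 in C362A against wildtype and -0.66 in C362A against knockout, those of the LDL receptor family at 0.10 and 0.08, and none of the points passed the adjusted test.

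The 3 genes with levels most like those of each of the 5 genes were found by Pearson correlation of log2 CPM over the 15 libraries. For Fcgrt these were Alpi (intestinal alkaline phosphatase), Apoa4 (an apolipoprotein of chylomicrons) and Dgat2 (triglyceride synthesis), each with r = 0.99. For Amn they were Slc27a4 (fatty acid uptake), Glmp (a lysosomal membrane protein) and Folr1, each with r = 0.98. For Cubn they were Apob with r = 0.98, and Fgf1 (a growth factor) and Plec (a cytolinker) with r = 0.97 each. For Lrp2 they were Car12 (a carbonic anhydrase) with r = 0.96, Gm4755 with r = 0.90 and Ctns (the lysosomal cystine transporter) with r = 0.88. For Dab2 they were Aff2 with r = 0.92, and Susd2 and Nckap5 with r = 0.91 each. These r values were the highest among all genes tested and carry no test. Car12 averaged 15.3 ± 2.17 in C362A, 18.1 ± 1.95 in knockout and 16.0 ± 1.33 CPM in wildtype libraries, and Dgat2 averaged 444.4 ± 149.5 in C362A, 750.2 ± 28.4 in knockout and 745.4 ± 350.3 CPM in wildtype libraries.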

How the data were processed

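Poly(A) RNA libraries (TruSeq v2, single-end 50 bp reads) were aligned by the authors with GSNAP to GRCm38, per the submitters' processing notes. The deposited counts are uniquely aligned reads per gene model, per the file headers, and the authors also deposited RPKM with a size-factor adjustment, per the file headers. RPKM was used only to compare genes. The sources used here give no aligner version, settings or gene annotation. Names came from RefSeq for 31049 IDs and GENCODE for 78, and 5401 stayed unnamed but entered the filter and the fit like the rest.

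Counts of all 15 libraries were fitted with edgeR 4.0.16 in R 4.3.3 and compared by its quasi-likelihood test with a mean per genotype, TMM factors, robust estimates and filterByExpr (minimum count 10, minimum total 15). Benjamini-Hochberg adjustment ran over 18370 genes, with calls under 0.05. The biological coefficient of variation was 0.174. The step was also run on simulated counts with 1 dispersion for all genes. Lrp2, Cubn and Fcgrt varied more than that, so the run does not show how the test performs for them. CPM is counts per 1e+06 scaled by TMM factors, and log2 CPM used a prior count of 2. Libraries of a genotype differed far beyond sampling noise (chi-square per gene 10.7 to 139.1 over 30 pairs, mean count 50 or more), so each counted as 1 sample. Depth limits precision little at the counts seen (Lrp2 had at least 441 per library), and counting error is smaller than the spread between libraries. Replicate numbers follow accession order and pair no libraries.

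The 5 genes and all 22 gene lists were chosen with earlier results of these data known. The lists hold 271 entries; 269 symbols were matched and 2 were not, and some list genes and motifs are not reported here. The text names the 5 genes, Casp8 and Mlkl, the called genes of each list or else the 2 with the smallest p in C362A against wildtype, and the 3 genes most correlated with each. Exceptions are marked. Alternatives were RLE or no scaling factors, DESeq2 1.42.0, other filters, limma-voom (limma 3.58.1), factors without the 20 genes of highest count, robust estimates off, fits of 2 genotypes, a block for ID runs, marker covariates and each library left out. Levels without knockout replicate 5 were added after its kidney transcripts were seen.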

Additional observations from a re-analysis of the deposited data

Results flagged for a closer look

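A library was taken to lie far from the other 4 of its genotype where its gap to the nearest of them, divided by the range of all 5, was above the 95% critical value of Dixon. For the 5 genes, over 15 groups, the largest such ratio was 0.659, below that value. Among 63 groups formed by 21 gene lists and 3 genotypes, 8 had a library whose summed CPM lay far from the rest, and chance flags about 1 group in 20. Kidney proximal tubule markers summed to 71.9 CPM in knockout replicate 5, and fibroblast markers to 8297.3 CPM in the same library. C362A replicate 5 was high for partners of the receptors other than the 5 genes (3131.6 CPM), for ligands of megalin or cubilin (6470.7 CPM) and for vitamin and iron handling (2066.4 CPM). C362A replicate 1 was low for the LDL receptor family (957.3 CPM). Exocrine pancreas markers summed to 130.7 CPM in C362A replicate 4, and stomach markers to 7.81 CPM in knockout replicate 2. What set these libraries apart was not tested.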

How the results depend on the processing

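No paired analysis was possible because the labels give no replicate numbers. All values here are from edgeR unless named. Of the log2 fold changes of the 5 genes, 64 of 65 under other settings and 75 of 75 with 1 library left out kept their direction and side of the threshold in C362A against wildtype, 63 of 65 and 72 of 75 in knockout against wildtype, and 64 of 65 and 72 of 75 in C362A against knockout. The exceptions were the following. With the enterocyte covariate, Dab2 was 0.08 in C362A against wildtype and Fcgrt 0.09 in C362A against knockout. Fcgrt in knockout against wildtype was 0.02 with the pan-epithelial covariate, 0.15 by limma-voom and -0.26 to 0.37 with 1 library left out, and Amn there was -0.05 to 0.18. In C362A against knockout, leaving out 1 library gave -1.46 to -0.92 for Lrp2, -1.69 to -1.08 for Cubn and -0.42 to -0.21 for Dab2, and the lowest of each, without C362A replicate 5, was called. The cause was not tested, but the enterocyte mean of that replicate was the highest of its genotype.

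Counts of called genes depended more on the settings. C362A against wildtype had 15, and 1 with a filter of 5 CPM in 5 libraries, 7 with the Y-linked covariate, 55 by DESeq2 and 7 to 1807 with 1 library left out. Knockout against wildtype had 7, and 2 with that filter, 3 with the Y-linked covariate, 4 with the pan-epithelial covariate, 1 in the fit of 2 genotypes, 13 by DESeq2 and 1 to 8 with 1 library left out. C362A against knockout had 2, and 4 in the fit of 2 genotypes, 30 by DESeq2 and 2 to 805 with 1 library left out. The highest counts of the comparisons with C362A came without C362A replicate 5, and the causes of the other shifts were not tested. The block for ID runs changed no call among the 5 genes. Depth did not limit the 5 genes, whereas 7 of 9 kidney markers were too low to test.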
